A study of Mus musculus with 16 samples.

Results

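Mature strands processed from 3 hairpin families that lie in introns of muscle genes were followed here across the whole series: miR-486a-5p, miR-486b-5p, miR-486a-3p, miR-486b-3p, miR-499-5p and miR-208b-3p. They were taken by name and make up 6 of the 2510 miRNA names listed. The cells were C2C12, a line of mouse myoblasts that fuse into myotubes when serum is lowered, labelled PAX7 NEG. The control cells, labelled wild-type, came as 2 populations, and the triple-knockout (tKO) cells, in which the hairpins miR-1a-1, miR-1a-2 and miR-206 were deleted, as 2 clones. Each line was sampled with 2 biological replicates in growth medium with 20% fetal bovine serum at about 80% confluency (GM) and after 3 days in medium with 2% horse serum (DM3), which gave 4 groups of 4 small RNA libraries. The 4 libraries of a group therefore rest on 2 lines, and p-values measure the spread between libraries.

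MicroRNAs are cut from hairpin transcripts and guide Argonaute proteins to messenger RNAs mainly through the seed, the bases 2 to 8 from the 5′ end. An intronic miRNA on the strand of its host is usually transcribed together with it. miR-486 lies in Ank1, which codes for ankyrin 1 of red blood cells and, from a promoter further downstream, for a small muscle form that binds the sarcomere protein obscurin. It is known as a muscle-enriched miRNA under the control of MyoD and myocardin-related transcription factors, and it is also abundant in red blood cells. miR-499 and miR-208b lie in the myosin heavy chain genes Myh7b and Myh7, and with miR-208a, from Myh6, they are known as regulators of slow fiber genes in heart and slow muscle.

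In the GRCm38 annotation, the hairpin Mir486 (ENSMUSG00000070084.3) lies at chr8:23142555-23142682 on the plus strand, the strand of Ank1. Mir3107 (ENSMUSG00000106471.1), the hairpin of miR-486b, lies at chr8:23142573-23142662 on the minus strand, so that all of its 90 bases are shared with Mir486 in antisense. Both are intronic in 15 of the 15 Ank1 transcripts that span them. Mir499 (ENSMUSG00000076312.1) lies at chr2:155622880-155622958 on the plus strand in an intron of Myh7b, in 1 of 1 spanning transcript. Mir208b (ENSMUSG00000077928.1) lies at chr14:54975700-54975776 on the minus strand in an intron of Myh7, in 2 of 2 spanning transcripts. Both myosin-hosted hairpins are on the strand of their host.

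Mature sequences were matched in RefSeq (GRCm38.p6) for 2 of the 6 names and are shown 5′ to 3′ with the seed in capitals, because these 2 miRNAs share most of it:
miR-499-5p: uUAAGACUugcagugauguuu
miR-208b-3p: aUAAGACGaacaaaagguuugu
The bases UAAGAC at positions 2 to 7 were the same in both, and the seeds differed in the last base. Of the 1674 mature sequences in the table, 3 carried UAAGAC at these positions, the third being miR-208a-3p. The mature strands lie at chr2:155622893-155622913 on the plus strand and at chr14:54975710-54975731 on the minus strand.

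Library totals ran from 512340 to 6543570 listed reads in control GM, from 1237924 to 5992408 in tKO GM, from 247964 to 2991983 in control DM3 and from 112792 to 4542927 in tKO DM3. Levels are given as CPM, reads scaled to the total of listed reads in the library. The smallest library, tKO DM3 line 1 replicate 1, stood apart: 18.92% of its reads were under 18 nt and 32.31% carried a mismatch, against 2.96 to 4.8% and 11.49 to 13.76% in the other 3 tKO DM3 libraries. In control DM3, 4.76 to 12.81% of reads were under 18 nt, against 1.88 to 2.95% in control GM. The deletion showed in the libraries: miR-206-3p averaged 34361 ± 16201.1 CPM (SD, n = 4) in control DM3 and 21.8 ± 33.0 CPM (SD, n = 4) in tKO DM3.

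The reads of the 6 names summed to 7618 of 38541236 listed reads, and their forms differed widely. miR-486b-5p held 5543 reads, of which 94.8%, or 5252 reads, were the exact mature sequence of 22 nt. A form with the same start and 1 nt more at the 3′ end made up 244 further reads. miR-486a-5p held 1814 reads and none of the exact mature sequence. Its main forms began at the mature start and were 1 nt (814 reads), 2 nt (357 reads) or 3 nt (91 reads) shorter at the 3′ end, and 25.6% of its reads were sequences of 18 nt or longer with a mismatch. In these tables the letters a and b of miR-486-5p therefore separated the mature length from shorter and mismatched forms, and do not give the reads of each hairpin. The share of miR-486-5p reads listed as a ran from 22.5 to 24.8% in control GM, from 22.4 to 29.2% in tKO GM, from 20.9 to 28.6% in control DM3 and from 25.4% upward in tKO DM3, where it reached 41.7% in the smallest library, with 24 reads (95% Wilson interval 24.5 to 61.2%).

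**Figure D1:**
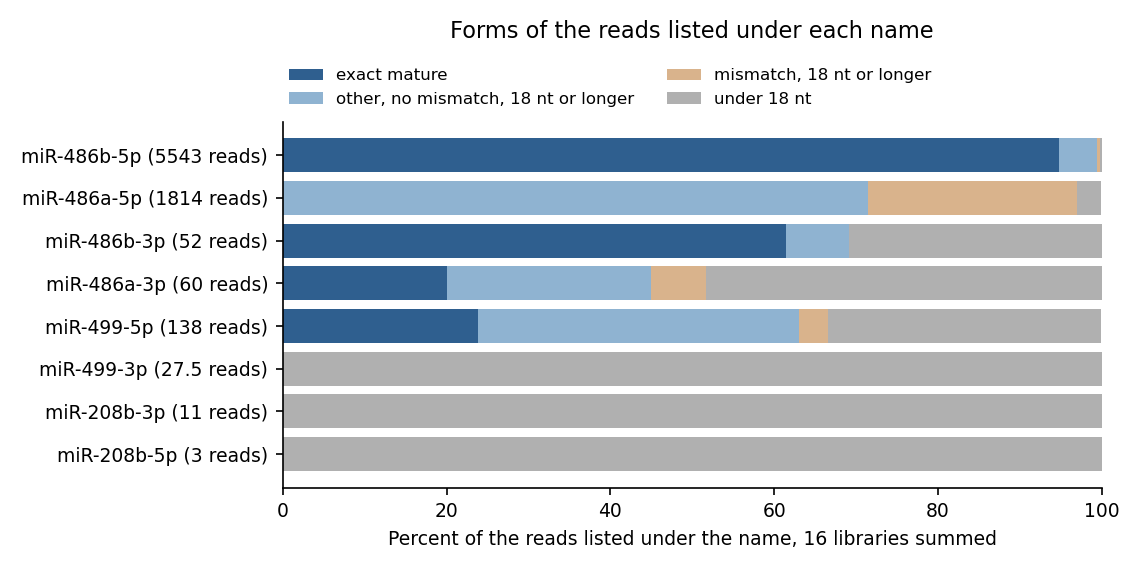
Share of the reads listed under each name (horizontal axis, percent, 16 libraries summed) by form: exact mature sequence, other sequence of 18 nt or longer without or with a mismatch, and under 18 nt. Exact sequence makes up 94.8% of miR-486b-5p and none of miR-486a-5p, and all reads of miR-208b-3p, miR-208b-5p and miR-499-3p are under 18 nt.

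The 3p strands of miR-486 were scarce. miR-486a-3p held 60 reads in 12 libraries and miR-486b-3p 52 reads in 14, with 48.3% and 30.8% of them under 18 nt. Group means of miR-486a-3p lay between 0.724 and 1.98 CPM and those of miR-486b-3p between 1.11 and 2.43 CPM. Neither passed the filter on low counts, and their folds are not given.

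miR-499-5p held 138 reads, and the sequences behind them are shown because they decide which part of the count is the miRNA. The 3 most read were:
templated form with 1 nt more than the mature strand: ttaagacttgcagtgatgttta
exact mature strand: ttaagacttgcagtgatgttt
13-nt read with a mismatch: tgcagtgatgtgt
The first held 39 reads in 9 libraries and the second 33 reads in 10 libraries, and both occur in the Mir499 hairpin. The third held 18 reads in 8 libraries, all with a tail, and does not occur in that hairpin. In all, 33.3% of the reads of miR-499-5p were under 18 nt, and the same held for all 27.5 reads of miR-499-3p, the opposite arm.

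miR-208b-3p was not detectable as a miRNA at this depth. It held 11 reads in 5 libraries, all under 18 nt, and its one listed sequence without a mismatch was the first 16 bases of the mature strand, ataagacgaacaaaag, in 1 read. No library held a read of 18 nt or longer, which allows up to 0.0778 CPM over all libraries. The 3 reads of the opposite arm miR-208b-5p were also under 18 nt. miR-208a-3p, the heart relative with the same bases 2 to 7, averaged 0.229 to 1.51 CPM per group and had no read of 18 nt or longer without a mismatch.

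Ranked by reads within each library, miR-486b-5p had a median rank of 219 (170 to 272), miR-486a-5p of 315 (267 to 376) and miR-499-5p of 757.5 (480 to 1323, in the 14 libraries with a read). Of the 6 names, 3 passed the filter on low counts that left 881 names for the tests: miR-486a-5p, miR-486b-5p and miR-499-5p. For these, log2 fold changes, standard errors (SE) and Benjamini-Hochberg adjusted p-values are from edgeR's quasi-likelihood test over all 881 names. In this fit, which has no term for line or replicate, no member passed an adjusted p of 0.05 in any comparison.

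In control cells, miR-486a-5p stood at 50.7, 41.3, 29.0 and 32.4 CPM in GM and at 80.7, 95, 85.4 and 69.5 CPM in DM3. Every DM3 library lay above every GM library. The mean was 38.4 ± 9.76 CPM in GM and 82.6 ± 10.6 CPM in DM3 (SD, n = 4), and the log2 fold change was 0.76 (SE 0.33, 95% confidence interval 0.08 to 1.45, edgeR adjusted p = 0.0874). The same 2 populations were sampled in both media, and with the replicate number and the line as blocks the log2 fold change was 0.79 and passed (edgeR adjusted p = 0.046), while with the replicate number alone it was 0.78 (edgeR adjusted p = 0.0602). With both blocks 329 of the 881 names passed the test.

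miR-486b-5p showed the same order in the control libraries, at 173.7, 125.7, 99.6 and 101.3 CPM in GM and 266.2, 360.5, 213.5 and 212.6 CPM in DM3. These groups did not overlap either, with means of 125.1 ± 34.5 and 263.2 ± 69.5 CPM (SD, n = 4). Its log2 fold change was 0.72 (SE 0.35, 95% confidence interval -0.01 to 1.45, edgeR adjusted p = 0.126), and with both blocks 0.73 (edgeR adjusted p = 0.0538). Among all 881 names, 21.7% had every control DM3 library above every control GM library, and 28.3% passed the test in this comparison in either direction.

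Whether miR-486-5p passed the test in control cells depended on the reads counted, the scaling and the fit. With sequences of 18 nt or longer and no mismatch only, miR-486a-5p rose by a log2 fold change of 1.49 (edgeR adjusted p = 0.00119) and miR-486b-5p by 1.22 (edgeR adjusted p = 0.00679). In that fit, which applies the filter to these reads anew, 161 names passed the test. Their share of the names tested in it is not given here, so passing cannot be read as particular to miR-486-5p. On these reads the mean of miR-486a-5p was 23.8 ± 3.8 CPM in GM and 60.8 ± 10.4 CPM in DM3 (SD, n = 4). That of miR-486b-5p was 123.6 ± 33.1 CPM in GM and 261.8 ± 67.9 CPM in DM3 (SD, n = 4). For this name nearly all reads were of that class, at 1627 of 1634 in control GM and 1113 of 1121 in control DM3. Relative to the median of all names, which was -0.02 on these reads, the 2 names stood at 1.51 and 1.24. With library totals in place of TMM scaling, both names also passed, at log2 fold changes of 1.12 (edgeR adjusted p = 0.0226) and 1.08 (edgeR adjusted p = 0.0345). Under this scaling 247 names passed the test. That scaling moved the median of all names from -0.04 to 0.33, and relative to the median the 2 names stood at 0.8 and 0.76 under TMM and at 0.79 and 0.75 under totals.

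Blood cell markers were low in the same libraries, while a liver marker was not low in GM. miR-451a, the defining miRNA of red blood cells, held 1 read of 18 nt or longer without a mismatch in control GM, 1 in tKO GM and none in DM3. The summed level of 6 blood markers was 4.72 to 7.9 CPM in control GM, 2.78 to 16.3 CPM in tKO GM, 4.03 to 10 CPM in control DM3 and 0.0 to 7.04 CPM in tKO DM3. Of these 6, 3, 3, 5 and 4 had no such read in the respective group. miR-122-5p, a liver miRNA, averaged 20.4 ± 11.1 CPM in control GM and 2.02 ± 1.4 CPM in control DM3 (SD, n = 4), and 37.9 ± 26.9 and 4.13 ± 3.78 CPM in tKO (SD, n = 4). The mean of the liver marker was thus lower in the medium with less serum in both genotypes. In control cells miR-486-5p stood higher in that medium, while in tKO cells the media overlapped for both names. The part of the liver marker in the values of miR-486 was not tested.

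In tKO cells, miR-486a-5p stood at 36.4, 52.1, 49.4 and 42.4 CPM in GM and at 88.7, 47.0, 92.3 and 50.2 CPM in DM3. In both clones replicate 1 of DM3 was the higher of the 2 replicates, and the DM3 and GM groups overlapped. Its log2 fold change was 0.37 (SE 0.33, 95% confidence interval -0.32 to 1.06, edgeR adjusted p = 0.47), and 0.11 without tKO DM3 line 2 replicate 1. miR-486b-5p stood at 88.1, 169.0, 171.0 and 136.0 CPM in GM and at 124.1, 125.7, 271.4 and 136.0 CPM in DM3, so that 3 of the 4 DM3 libraries lay within the range of GM. Its log2 fold change was 0.04 (SE 0.35, 95% confidence interval -0.69 to 0.76, edgeR adjusted p = 0.964), and -0.36 without the library at 271.4 CPM. In this comparison 19.9% of all names passed the test.

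**Figure D2:**
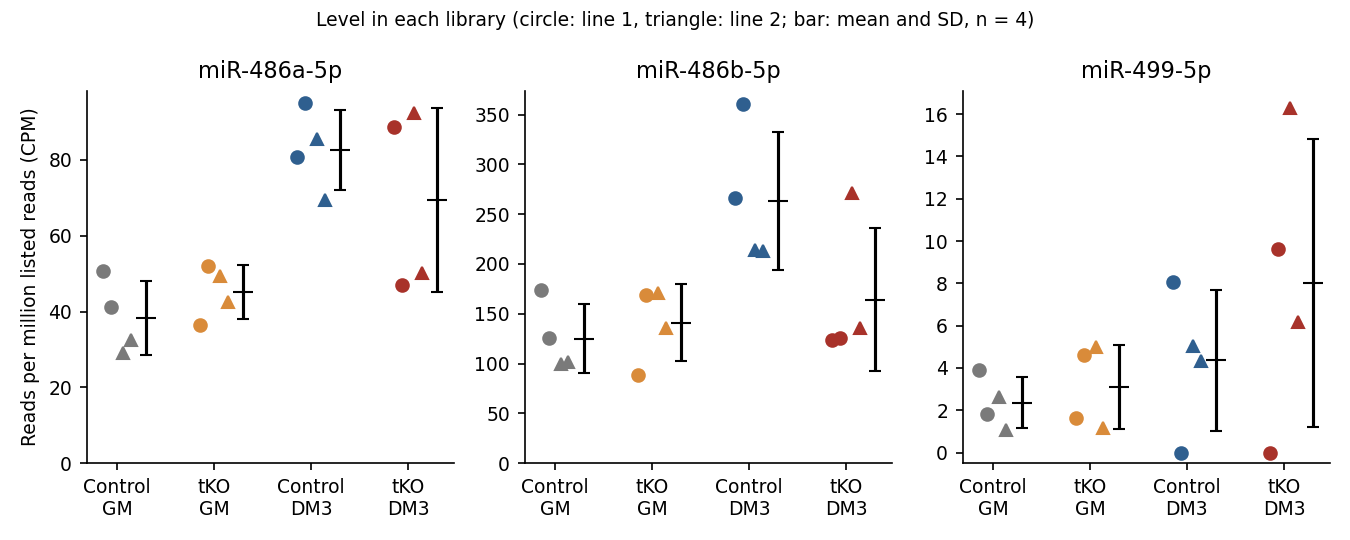
Level of miR-486a-5p, miR-486b-5p and miR-499-5p in each library (vertical axis, CPM, a separate scale per panel) by group; circles are line 1, triangles line 2, and bars the mean and SD of 4 libraries. Both miR-486-5p names lie higher in every control DM3 library than in any control GM library, while the tKO DM3 libraries overlap those of tKO GM.

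The effects of differentiation on miR-486-5p in the 2 genotypes were not shown to differ. The interaction, the DM3 effect in tKO minus that in control, was -0.4 (SE 0.46) for miR-486a-5p and -0.68 (SE 0.49) for miR-486b-5p, both with an edgeR adjusted p of 0.92. For miR-486b-5p it was -1.11 without tKO DM3 line 2 replicate 1, -0.45 without tKO GM line 2 replicate 1, -0.06 with replicate 1 alone and -1.2 with replicate 2 alone, none past the threshold. For miR-486a-5p it ran from -0.69, without tKO DM3 line 2 replicate 1, to -0.23, without tKO DM3 line 1 replicate 2, and was -0.25 without tKO GM line 2 replicate 1. It was 0.1 for that name with replicate 1 alone and -0.78 with replicate 2 alone, neither past the threshold. On sequences of 18 nt or longer without a mismatch it was -1.06 for both, with an edgeR adjusted p of 0.754. Over all names, 0.0% passed the interaction test in edgeR, 42 had an unadjusted p under 0.05, and DESeq2 called 0 as well.

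Between genotypes, the levels of miR-486-5p did not pass the test in either medium. In GM the tKO libraries overlapped the control libraries for both names, with log2 fold changes of 0.19 (SE 0.32, edgeR adjusted p = 0.962) for miR-486a-5p and 0.12 (SE 0.35, edgeR adjusted p = 0.99) for miR-486b-5p. The 95% confidence intervals ran from -0.49 to 0.87 and from -0.61 to 0.84. In DM3 the mean of miR-486a-5p was 69.5 ± 24.2 CPM in tKO and that of miR-486b-5p 164.3 ± 71.6 CPM (SD, n = 4), with log2 fold changes against control of -0.2 (SE 0.33, edgeR adjusted p = 0.825) and -0.57 (SE 0.35, edgeR adjusted p = 0.487). The value of miR-486a-5p ran from -0.52 to -0.04 with each library left out in turn. For miR-486b-5p, 3 tKO DM3 libraries lay below all 4 control DM3 libraries, and the fourth, clone 2 replicate 1, above 3 of them. Without that library the log2 fold change was -1.01 (edgeR adjusted p = 0.271), and without the smallest library it was -0.49 (edgeR adjusted p = 0.438). With replicate 1 alone it was -0.06 and with replicate 2 alone -1.11, neither past the threshold. Of all names, 1.36% passed the genotype test in GM and 1.14%, or 10 names, in DM3, where 62 names passed without the smallest library.

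miR-499-5p was read too rarely for a firm comparison. It held 2, 10, 5 and 7 reads in control GM, 2, 9, 9 and 7 in tKO GM, 2, 0, 2 and 13 in control DM3, and 0, 30, 12 and 28 in tKO DM3. The 2 highest counts, 30 and 28, were in tKO DM3, and the library at 0 in that group is the smallest, where a count of 0 allows up to 26.6 CPM. As levels, control GM averaged 2.36 ± 1.21 CPM, tKO GM 3.09 ± 1.98 CPM, control DM3 4.36 ± 3.33 CPM and tKO DM3 8.01 ± 6.8 CPM (SD, n = 4). The log2 fold change of DM3 against GM was 1.46 in tKO (SE 0.67, 95% confidence interval 0.07 to 2.86, edgeR adjusted p = 0.134) and 0.59 in control (SE 0.77, edgeR adjusted p = 0.6). The name passed the filter mainly through tKO DM3, at 9.6, 16.3 and 6.16 CPM, with 8.07 CPM in control DM3. No GM library exceeded 5.0 CPM, so the filter itself favors a higher tKO DM3 and no conclusion is drawn from these folds. With no filter the log2 fold change of DM3 against GM in tKO was 1.4 (edgeR adjusted p = 0.228).

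With the filter, the log2 fold change of tKO against control was 1.35 in DM3 (SE 0.73, 95% confidence interval -0.18 to 2.87, edgeR adjusted p = 0.433) and 0.47 in GM (SE 0.71, edgeR adjusted p = 0.957), and the interaction 0.87 (SE 1.03, edgeR adjusted p = 0.92). The value in DM3 is subject to the same selection by the filter, and was 1.35 with no filter (edgeR adjusted p = 0.505). Sequences of 18 nt or longer without a mismatch made up 12 reads in control GM, 12 in tKO GM, 11 in control DM3 and 52 in tKO DM3. In CPM these were 0, 0, 5.02 and 3.01 in the control DM3 libraries and 0, 7.04, 8.14 and 5.28 in the tKO DM3 libraries, and the name did not pass the filter on them. On these reads 3 of the tKO DM3 libraries thus lay above all control DM3 and all GM libraries, and the fourth, the smallest, was at 0. These 3 are the libraries through which the name mainly passed the filter, and the order was not counted over other names. No conclusion is drawn from it. The 2 control libraries at 0 allow up to 12.1 and 3.24 CPM, and the 5.02 CPM rests on 2 reads. Over all listed reads, with each library left out in turn, the log2 fold change between genotypes in DM3 ran from 0.8, without control DM3 line 1 replicate 2, to 1.79, and that of DM3 against GM in tKO from 1.08, without tKO DM3 line 2 replicate 1, to 1.94. That of DM3 against GM in control ran from 0.14 to 1.13, and the interaction from 0.33 to 1.39.

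**Figure D3:**
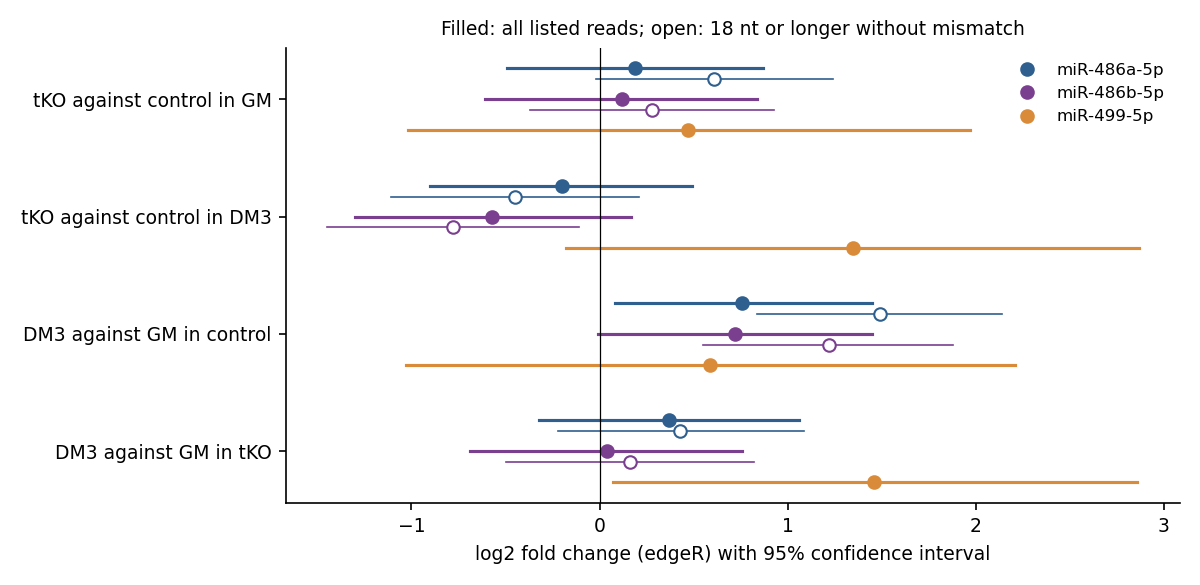
Log2 fold change (horizontal axis, edgeR) with its 95% confidence interval for 3 names in 4 comparisons; filled points use all listed reads, open points sequences of 18 nt or longer without a mismatch, on which miR-499-5p did not pass the filter. With all reads no name passes the adjusted test, and with the open points miR-486a-5p (1.49) and miR-486b-5p (1.22) pass in control DM3 against control GM.

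The 3′ ends of miR-486-5p carried many non-templated bases. Of the 5252 reads of the exact 22-nt sequence, 49.7% had a tail: 30.3% ended in 1 added uracil (thymine in the tables), 16.2% in 1 added adenine and 2.21% in a tail of 2 bases. Terminal nucleotidyltransferases are known to add such bases. Among the 179 names with at least 1000 reads of their exact sequence, the median tail share was 11.1% and 18 names lay above miR-486b-5p. The median share of single uracil tails was 1.07%, with 10 names above it, and that of single adenine tails 3.59%, with 12 names above it. The 10th percentile was 0.0% for both bases. Abundant names stood at 0.0%, such as let-7c-5p for uracil (1380103 reads) and miR-143-3p for adenine (1001525 reads). Whether the tables could list these tails for such names was not tested, so the medians and ranks for single bases are descriptive only. The form shorter by 1 nt, listed as miR-486a-5p, was also tailed in 49.8% of reads, but mainly with adenine, at 34.4%, and the form longer by 1 nt in 0.41%. Tails are as the deposited tables assign them, and how these treat an added base that equals the next templated one is not given in the sources used here. Each main form lacked 1 base among its single tails. The exact form had 0 cytosine tails, the form shorter by 1 nt 0 guanine tails and the form shorter by 2 nt 0 adenine tails. Shares of single bases are therefore not comparable between forms.

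**Figure D4:**
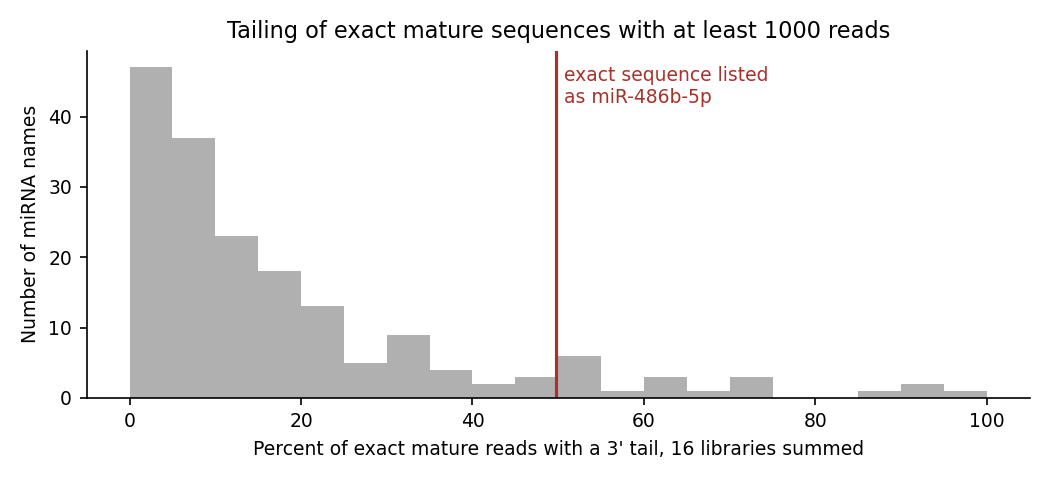
Number of miRNA names (vertical axis) by the percent of exact mature reads with a 3′ tail (horizontal axis, bins of 5 points, 16 libraries summed) for 179 names with at least 1000 such reads. The line marks the exact sequence listed as miR-486b-5p at 49.7%, above the median of 11.1%.

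In control cells the tailed share of miR-486-5p was lower in DM3 than in GM. Over all reads listed as miR-486b-5p it averaged 54.0% ± 5.0 in GM (49.7 to 59.6%) and 36.9% ± 3.0 in DM3 (34.1 to 40.9%; SD, n = 4), a difference of -17.1 points. The groups did not overlap, and the two-sided exact permutation test over 70 assignments gave p = 0.0286, the smallest it can give. For miR-486a-5p the share averaged 55.5% ± 4.52 in GM and 43.8% ± 4.52 in DM3 (SD, n = 4), a difference of -11.7 points (exact permutation p = 0.0286). With any of the 4 control GM libraries left out, the latter p was 0.0571. Reads listed as miR-486a-5p were tailed in 43.8% at 18 nt or longer without a mismatch, 60.6% with a mismatch and 88.7% under 18 nt. The first class held 342 of 521 reads in control GM and 263 of 350 in control DM3. The part of this mix in the difference was not tested, as too few reads per library had no mismatch. With the replicate number as a block, the differences of both names gave an exact permutation p of 0.0556, the smallest of 36 assignments. In this comparison, without the block, 37.7% of the 268 names with at least 20 reads in each library reached p under 0.05 in either direction and 34.0% did so with a lower share in DM3. A lower tailed share in DM3 was thus common among the names, whose median difference was -3.4 points. The share of tailed reads over whole libraries did not fall in the same way, with 27.82 to 32.22% in control GM and 29.01 to 36.7% in control DM3. That share also counts reads under 18 nt, which made up 1.88 to 2.95% in control GM and 4.76 to 12.81% in control DM3. Such reads were tailed in 88.7% for miR-486a-5p and 100% for miR-486b-5p. The whole-library share is thus no like measure to the share per name, and the part of short reads in it was not tested.

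On the exact sequence alone, 62.2, 59.6, 52.5 and 52.5% of reads were tailed in the control GM libraries and 44.1, 38.1, 34.9 and 36.9% in the control DM3 libraries. Single uracil tails averaged 32.2% ± 6.83 in GM and 20.7% ± 2.95 in DM3 (SD, n = 4), with the lowest GM library at 23.5% and the highest DM3 library at 23.8%. Single adenine tails averaged 19.5% ± 5.83 and 16.2% ± 3.37 (SD, n = 4), with wide overlap. The larger of these differences was thus in the uracil tails.

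In tKO cells the tailed share of miR-486b-5p was 54.1% ± 7.57 in GM (SD, n = 4) and 37.2% ± 2.99 in DM3 (SD, n = 3, without the smallest library, which held 14 reads). The difference was -16.9 points (exact permutation p = 0.0571 over 35 assignments). The groups did not overlap, as was so, with a lower share in DM3, for 65 of the 343 names with enough reads (19%). For miR-486a-5p it was 47.0% ± 9.52 in GM (SD, n = 4) and 49.6% ± 3.71 in DM3 (SD, n = 3), with overlap and an exact permutation p of 0.686. Between genotypes the tailed share of miR-486b-5p differed by 0.0908 points in GM (exact permutation p = 1.0) and, without the smallest library, by 0.244 points in DM3 (exact permutation p = 0.943). That of miR-486a-5p differed by -8.46 points in GM (exact permutation p = 0.229) and by 5.85 points in DM3 (exact permutation p = 0.114). Its difference in GM ran from -11.4 to -4.77 points with each library left out in turn. In the genotype comparison in GM, 5.66% of 318 names reached p under 0.05.

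**Figure D5:**
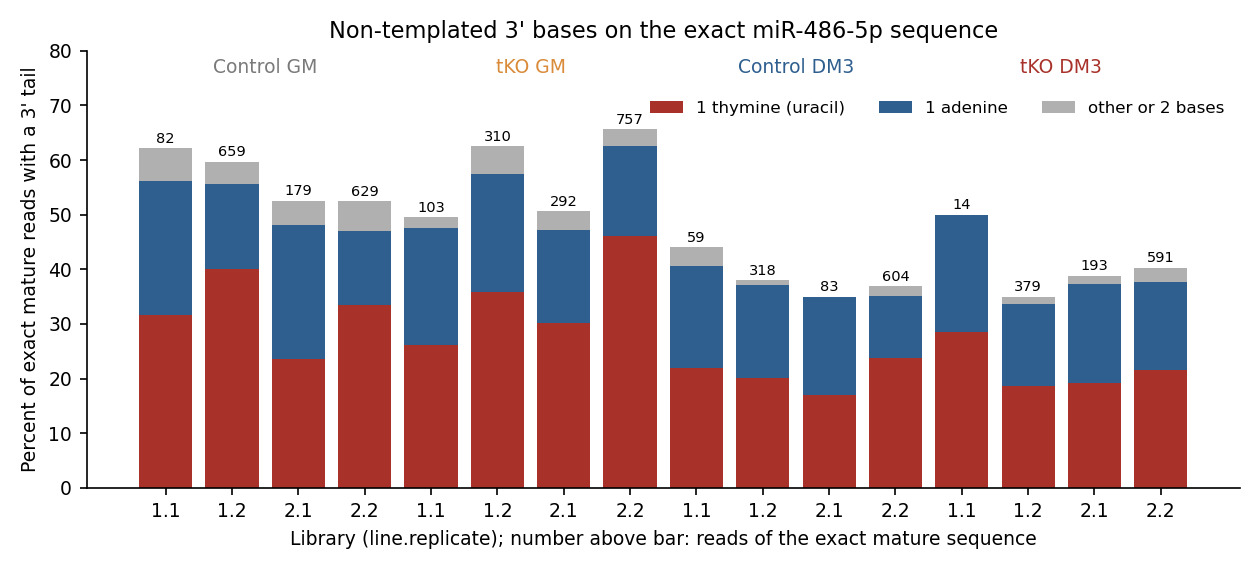
Percent of reads of the exact miR-486-5p sequence with a 3′ tail (vertical axis) in each of the 16 libraries, split into 1 uracil (thymine), 1 adenine and other or 2-base tails; numbers above the bars are the reads behind them. The control GM bars lie between 52.5 and 62.2% and the control DM3 bars between 34.9 and 44.1%, and the tKO DM3 bar at 50.0% rests on 14 reads (95% Wilson interval 26.8 to 73.2%).

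The share of 3p reads among all miR-486 reads was low, at 0.0 to 2.53% per library. It averaged 1.13% ± 0.343 in control GM, 1.9% ± 0.51 in tKO GM, 1.05% ± 0.204 in control DM3 and 1.39% ± 0.998 in tKO DM3 (SD, n = 4). With 0 to 15 reads of the 3p strands per library, tKO against control gave an exact permutation p of 0.0857 in GM and 0.571 in DM3. Without the smallest library, which held no 3p read, the DM3 difference was 0.802 points (exact permutation p = 0.0286, the smallest of 35 assignments), and without tKO GM line 2 replicate 2 the GM difference was 0.974 points (exact permutation p = 0.0286). In each medium, 1 of 10 alternatives thus reached p under 0.05, and the same share was not tested for other hairpins, so no conclusion is drawn from these. On sequences without a mismatch the genotype differences were smaller, at 0.238 points in GM (exact permutation p = 0.514) and 0.192 points in DM3 (exact permutation p = 0.743). DM3 against GM gave an exact permutation p of 0.657 in control and 0.429 in tKO.

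Of a list of 25 other miRNAs of muscle and myogenesis, 20 were tested, and 6 rose and 5 fell in control DM3 against GM. miR-206-3p, of the deleted family, rose by a log2 fold change of 4.58 (edgeR adjusted p = 0.000303) and miR-133b-3p, its cluster partner, by 6.69 (edgeR adjusted p = 9.32e-06). miR-378a-3p, from an intron of Ppargc1b, rose by 0.91 (edgeR adjusted p = 0.0107), and miR-675-3p, from H19, by 5.29 (edgeR adjusted p = 0.000185). miR-1a-3p and miR-133a-3p also rose, but the 179 and 134.7 reads under these names are part of 612 and 9022 once other names of the same miRNAs are added. The names that fell were miR-221-3p (-2.06, edgeR adjusted p = 0.000311) and miR-222-3p (-2.09, edgeR adjusted p = 0.000123), which are known from dividing myoblasts, with miR-31-5p, miR-29a-3p and miR-29b-3p. Over all 881 names 28.3% passed this test, 134 higher and 115 lower in DM3. The list's median log2 fold change was 0.01, against -0.04 over all names.

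In tKO DM3 against GM, 5 of the 20 rose and 2 fell, with a median of 0.18 against 0.03 over all names, of which 19.9% passed, 103 higher and 72 lower. miR-133a-3p, miR-133b-3p, miR-378a-3p and miR-675-3p rose here as in control, with miR-27b-3p, at a log2 fold change of 1.41 (edgeR adjusted p = 0.0143), and miR-221-3p and miR-222-3p fell. Between genotypes, none of the 20 rose; miR-206-3p fell in GM and miR-206-3p and miR-1a-3p in DM3, which are the deleted miRNAs. The log2 fold changes of miR-486-5p in control DM3 (0.76 and 0.72) thus stood beside 0.91 for miR-378a-3p, 4.58 for miR-206-3p and 6.69 for miR-133b-3p.

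Names whose level followed the members over the 16 libraries were taken by the highest Pearson r of log2(TMM-scaled CPM + 1) among 603 names. For miR-486b-5p these were miR-574-3p (r = 0.72), miR-3968-3p (r = 0.72) and miR-486a-5p (r = 0.7). For miR-486a-5p they were miR-8092-3p (r = 0.85), miR-8096-3p (r = 0.81) and miR-145b-3p (r = 0.81), whose reads were of 18 nt or longer without a mismatch in 5.09%, 0.0% and 0.0%. That share was 93.6% for miR-574-3p and 0.137% for miR-3968-3p. The 3 names nearest to miR-499-5p were miR-3963-5p (r = 0.66), miR-7680-3p (r = 0.64) and miR-484 (r = 0.6), with 0.0324%, 89.0% and 100% such reads. The points share the libraries, their depth and their share of short reads, so these values describe the tables.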

How the data were processed

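Small RNA libraries were made from 0.5 µg total RNA and selected for inserts of 15 to 50 nt, per the labels' protocols. By their names, the deposited tables are the mouse miRNA output of unitas, whose version and reference release are not given in the sources used here. The submitters' processing notes name cutadapt 1.15, STAR 2.5.4 and mm10, with no role; mm10 is GRCm38, the assembly of the GENCODE annotation (release M21) used for positions. The authors deposited expected counts without normalization: 0.6254% of values are fractions, where a read matched several sequences. Listed sequences are 13 to 75 nt long, and further deposited expected counts give reads with added 3′ bases.

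The members and lists were chosen with earlier results of these data known. The names reported were the 6 members, the other arms of their hairpins, the listed muscle miRNAs past the threshold and, for each member tested, the 3 names with the highest Pearson r.

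Reads were summed per name as listed, without text in parentheses, and rounded. edgeR 4.0.16 in R 4.3.3 was fitted to all 16 libraries with 1 coefficient per group (filterByExpr, minimum count 10; TMM; robust quasi-likelihood tests; Benjamini-Hochberg adjusted p under 0.05). The common dispersion corresponds to a coefficient of variation of 0.476. On simulated counts for control DM3 against GM (855 names), 89% of 4-fold and 100% of 8-fold changes were recovered, with 10 false calls among 655 unchanged names. Only abundant names were changed, and no smaller change was simulated. The members tested had folds of 1.7, 1.65 and 1.51 in this comparison, so the simulation gives no recovery for them. Tail shares and 3p shares were compared by exact permutation tests. A count of 0 was taken to allow 3 counts; such limits cover counting error only, as reads carry no molecular identifiers. Alternatives included DESeq2 1.42.0, other scalings, filters and read classes, and each library left out. The choices of sequences of 18 nt or longer without mismatch, and of tail shares without the smallest library, were made after seeing the data.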

Additional observations from a re-analysis of the deposited data

Results flagged for a closer look

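In groups of 4 libraries, 44 sets of member values were checked for a library far from the others, and 3 were found; chance gives about 1 in 20. miR-486b-5p in tKO DM3 stood at 271.4 CPM in clone 2 replicate 1, against 124.1 to 136.0 CPM in the other 3 libraries. miR-208b-3p in control GM stood at 0.907 CPM in population 1 replicate 2, from 5 reads under 18 nt, against 0 in the others; with 3 libraries at 0, any value above 0 would be found, so this case says nothing beyond its reads. The share of miR-486-5p reads listed as miR-486a-5p in tKO DM3 was 41.7% in the smallest library, from 24 reads, against 25.4 to 27.2% in the others.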

How the results depend on the processing

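In control DM3 against GM, miR-486a-5p and miR-486b-5p kept a positive log2 fold change under every alternative run (0.55 to 1.49 and 0.33 to 1.22). They passed the threshold with total counts (1.12 and 1.08), DESeq2's Wald test (0.85 and 0.78), only the groups compared (0.88 and 0.84), sequences without mismatch (1.42 and 1.13), of 18 to 25 nt (1.14 and 1.11) and of 18 nt or longer without mismatch (1.49 and 1.22), and, for miR-486a-5p, with the replicate block and line block (0.79, adjusted p = 0.046); the cause was not tested. Summed, the 2 names gave 0.73 (edgeR adjusted p = 0.0955), and 1.26 (edgeR adjusted p = 0.00396) on sequences of 18 nt or longer without mismatch. Passing was common in these fits. Names called were 247 with total counts, 286 with DESeq2, 256 with only the groups compared and 329 with both blocks. They were 166 without mismatch, 158 at 18 to 25 nt and 161 at 18 nt or longer without mismatch. The main fit called 249 of 881.

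Signs turned, always without passing the threshold, for miR-486b-5p in tKO DM3 against GM with no filter (-0.09), minimum count 3 (-0.05), the replicate block and line block (-0.02), replicate 2 alone (-0.11) and single libraries left out (-0.36 to 0.23). They also turned for miR-486b-5p between genotypes in GM on thinned libraries (-0.02) and with single libraries left out (-0.1 to 0.22), for miR-486a-5p between genotypes in DM3 and in the interaction with replicate 1 alone (0.3 and 0.1), and for miR-499-5p between genotypes in GM (-0.02 to 0.82).

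With single libraries left out, the tail share difference of miR-486a-5p in control ran from -13.7 to -9.64 points, with an exact permutation p of 0.0571 when any control GM library was left out, and that of miR-486b-5p between genotypes in GM from -2.42 to 2.52. The 3p share differences ran from -0.187 to 0.0298 (control DM3 against GM), 0.0188 to 0.802 (genotypes, DM3) and 0.561 to 0.974 points (genotypes, GM), and without mismatched sequences the last 2 were 0.192 and 0.238.

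Replicate numbers share no stated batch. Deviations from group means correlated at 0.1 on average in pairs of libraries with the same number (-0.463 to 0.631, 28 of 48 over 0.1) and at -0.095 with different numbers. With the replicate block, the tail share differences of miR-486a-5p and miR-486b-5p in control stayed at -11.7 and -17.1 with an exact permutation p of 0.0556, the smallest of 36 assignments. The block changed no other call of a member and moved the names called between genotypes in DM3 from 10 to 16.

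Names called over all alternatives ran from 3 to 24 (12 as reported) and from 1 to 62 (10) between genotypes in GM and DM3, the 62 without the smallest library, from 86 to 329 (249) and 82 to 232 (175) for DM3 against GM in control and tKO, and from 0 to 1 in the interaction. Depth limits miR-499-5p, miR-208b-3p and the 3p strands of miR-486.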
